A study of Arabidopsis thaliana with 40 samples.

Results

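AT1G56300 and MSRB5 are 2 Arabidopsis thaliana genes whose signals in the shoot apex were among the lowest, relative to day 0, soon after plants were moved from short to long days. They were selected on that measured value, the log2 difference between day 3 and day 0 on these same arrays, and are followed here through 1 probe set each, 2 of the 22746 analysed. AT1G56300 encodes a protein with a J-domain, the module of the DnaJ family. MSRB5 (locus AT4G04830) encodes a methionine sulfoxide reductase of the B type. The level of each gene is given in all 20 groups of genotype and day. The differences from day 0 chose the genes and are therefore given as a description, without a test. The 2 genes are tested only in comparisons that use no day 0 array.

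J-domain proteins bind HSP70 chaperones and stimulate their ATPase, so that HSP70 closes on an unfolded client protein. Methionine sulfoxide reductases repair proteins in which methionine has been oxidised: the A type reduces the S form of methionine sulfoxide and the B type the R form, most often with electrons from thioredoxin. Both families are large in plants, and individual members differ in the compartment and the conditions in which they are expressed.

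Plants of 5 genotypes were grown for 30 days in short days (9 h light, 15 h dark) at 21 °C and then transferred to long days (16 h light, 8 h dark). Total RNA of the shoot apex was hybridised to ATH1 arrays at 0, 3, 5 and 7 days after the transfer, with 2 arrays per group and 40 arrays in all. The wild types were Columbia (Col) and Landsberg erecta (Ler). The mutants carried the alleles lfy-12, co-2 or ft-2. LFY specifies floral meristems, CO relays day length in the leaf, and FT is the mobile floral signal made there. As background, lfy-12 arose in Columbia, whereas both photoperiod mutants are in Landsberg erecta. Accordingly, lfy-12 was compared with Col and the others with Ler. The labels name no transgene. LFY, CO and FT have no named probe set here, so the mutations could not be checked on the arrays. No arrays of plants kept in short days were used, so day length, plant age and sampling day cannot be told apart, and the hour of sampling is not given in the sources used here.

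Deposited values ran from 3.03 to 13.63 and were read as log2 signal. Array medians lay between 6.91 and 7.07, and 27 bacterial control probe sets had array medians of 3.60 to 3.78. Replicate arrays correlated at 0.990 to 0.997. Probe sets that separate the 2 backgrounds read above 2% of their level in the opposite background on 3 arrays (foreign signal). The median share was 8.54% on the second day 5 array of lfy-12, 5.69% on the first day 3 array of co-2 and 4.14% on the first day 0 array of ft-2. These medians rest on 9, 26 and 27 probe sets in that order. The other 37 arrays read from -1.49% to 0.834%. Differences of the 2 genes from day 0 and between groups that these arrays enter are also given without them, whereas levels and their order include them. A listed gene counts as measured here only where a probe set lists that gene alone. As 8730 probe sets list no gene and 503 list several, the other listed genes may still be on the array. Of the tissue markers, the meristem gene CLV3 was the only 1 of 7 measured, and it was called in no genotype at day 3 or day 7. Of 9 leaf markers 4 were measured, and of 3 root markers 1 was measured.

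In Col, AT1G56300 read 8.88 and 9.01 on the 2 day 0 arrays, 5.17 and 6.63 at day 3, 4.83 and 4.80 at day 5, and 4.95 and 4.88 at day 7. In lfy-12 it read 8.31 and 9.24 at day 0, 4.60 and 4.99 at day 3, 4.56 and 4.38 at day 5, and 4.54 and 4.99 at day 7. The Columbia plants thus began with a signal in the upper part of the array and had a low one at every later day. In Ler the gene read 6.62 and 7.30 at day 0, 4.62 and 4.86 at day 3, 4.43 and 4.50 at day 5, and 4.24 and 4.45 at day 7. In co-2 it read 6.51 and 7.65, then 4.75 and 4.59, then 4.24 and 4.40, and finally 4.62 and 4.69 on the same days. In ft-2 it read 7.13 and 7.82, then 5.57 and 4.97, then 4.55 and 4.87, and finally 4.85 and 4.91. In each genotype every later array lay below both day 0 arrays.

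MSRB5 read 7.78 and 7.81 in Col at day 0, 5.53 and 5.50 at day 3, 5.85 and 5.47 at day 5, and 6.62 and 5.72 at day 7. In lfy-12 it read 8.45 and 7.87 at day 0, 6.50 and 6.68 at day 3, 6.23 and 6.62 at day 5, and 5.06 and 4.97 at day 7. Both Columbia genotypes read lower at day 3 than at day 0, but Col then held its signal and lfy-12 had a second step down at day 7. In Ler the gene read 6.44 and 6.78 at day 0, 4.78 and 4.58 at day 3, 4.12 and 4.89 at day 5, and 4.39 and 4.60 at day 7. In co-2 it read 5.63 and 6.21, then 4.99 and 4.59, then 4.75 and 4.96, and finally 4.53 and 4.46. In ft-2 it read 5.45 and 5.51, then 4.51 and 4.42, then 4.91 and 5.10, and finally 4.43 and 4.61. Again every later array lay below both day 0 arrays of its genotype, by the narrowest margin in ft-2.

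**Figure D1:**
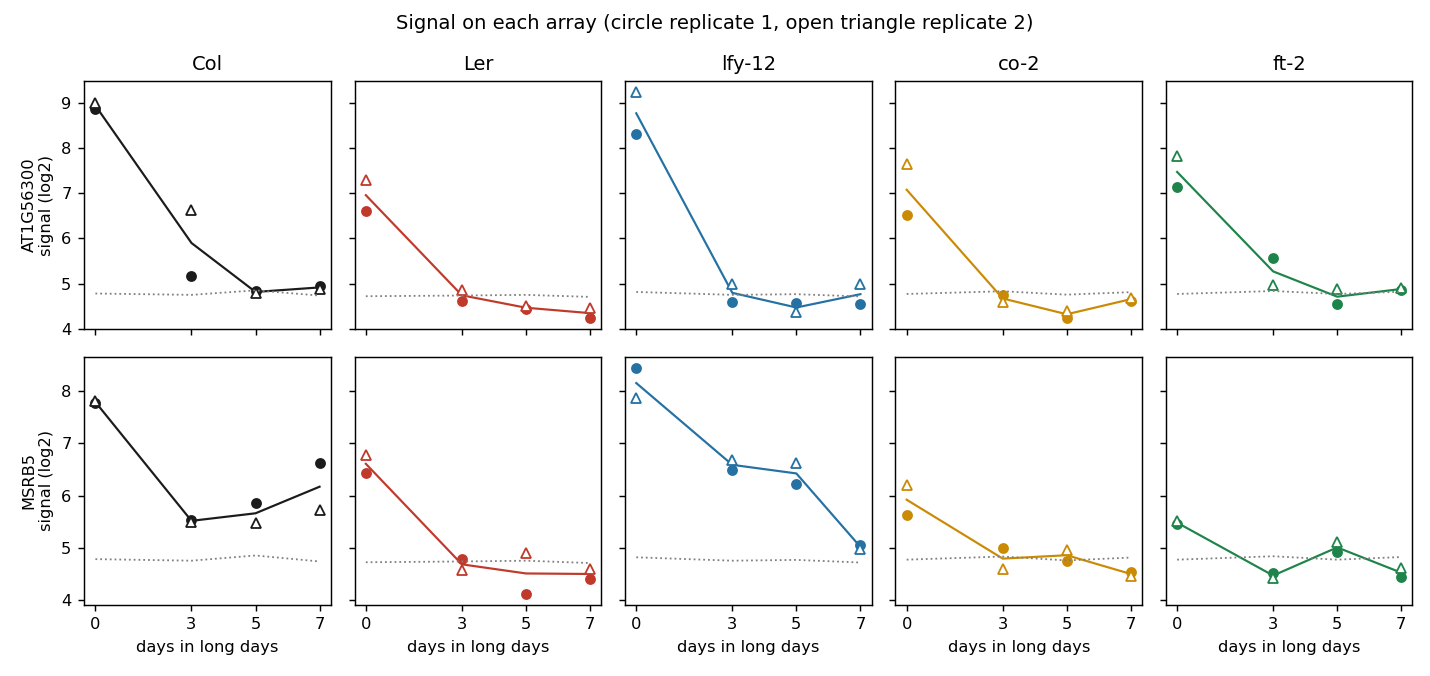
Signal (log2) of AT1G56300 (upper panels) and MSRB5 (lower panels) on each array against days in long days, with 1 panel per genotype, a line through the group means and a dotted line at the mean lower quartile of the arrays. AT1G56300 lies between 6.51 and 9.24 at day 0 and lies at the dotted line or near it at day 5 in all 5 genotypes, while MSRB5 of Col and lfy-12 stays above it at day 5.

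Among all probe sets, 1.68% lay wholly below day 0 at day 3 in all 5 genotypes, and 0.787% did so at days 3, 5 and 7. Both genes belong to these sets, through the contrast on which they were chosen. In bulk apex tissue, fewer cells that express a gene and less transcript per cell cannot be told apart. Whether the arrays of a group stand for separate plants is not said in the labels. The p-values therefore measure the spread between these arrays, which may be technical.

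At day 3 the signal of AT1G56300 relative to day 0 was lower by 3.05 ± 0.35 log2 units in Col (limma standard error, 2 arrays a group), or 8.27-fold. The difference was -3.98 ± 0.35 in lfy-12 (15.8-fold), -2.41 in co-2, -2.22 in Ler and -2.21 in ft-2, each with the same standard error. It was the lowest of all 22746 probe sets in Col and lfy-12, and ranked 2 in co-2, 5 in ft-2 and 11 in Ler. By day 7 the difference stood at -4.03 in Col, -4.02 in lfy-12, -2.62 in Ler, -2.60 in ft-2 and -2.42 in co-2. Between 75.6% (Col) and 99.5% (co-2) of the log2 difference at day 7 was thus already present at day 3, in a contrast that shares the day 0 arrays.

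For MSRB5 the differences at day 3 were smaller, at -2.28 ± 0.24 in Col (4.85-fold), -1.57 in lfy-12, -1.93 in Ler, -1.02 in ft-2 and -1.13 in co-2. It ranked from 4 (Col) to 92 (ft-2) among all probe sets. At day 7 the difference was -3.14 ± 0.24 in lfy-12 (8.84-fold), -2.11 in Ler, -1.62 in Col, -0.95 in ft-2 and -1.42 in co-2. The day 3 difference was 49.9% of the day 7 one in lfy-12 and 140% of it in Col. The low value at day 3 relative to day 0 is what chose both genes, whereas their later courses differed in Col and lfy-12.

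**Figure D2:**
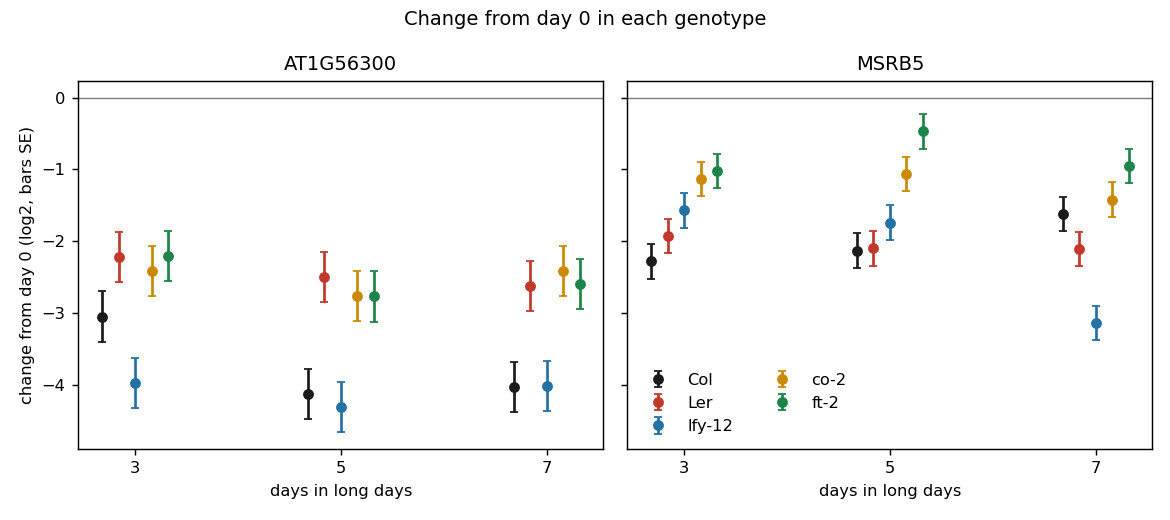
Change from day 0 (log2, bars show the limma standard error) at days 3, 5 and 7 for each genotype, AT1G56300 on the left and MSRB5 on the right. Col and lfy-12 lie near -4 for AT1G56300 at days 5 and 7, and lfy-12 alone reaches -3.14 for MSRB5 at day 7.

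Leaving out single arrays moved these descriptions. It could not turn them, because every later array lay below both day 0 arrays of its genotype. The day 3 difference of AT1G56300 in Col ranged from -3.78 to -2.32, since its 2 day 3 arrays stood 1.46 log2 units apart, a larger replicate difference than that of 99.9% of probe sets. In co-2 it ranged from -2.98 to -1.84. Without the arrays with foreign signal the day 3 difference in ft-2 was -2.55 for AT1G56300 and -1.05 for MSRB5, and in co-2 it was -2.49 and -1.33. At day 7 the ft-2 values without them were -2.94 for AT1G56300 and -0.98 for MSRB5. At day 5 they were -3.11 and -0.50 in ft-2, in place of -2.77 and -0.47, and -4.22 and -1.93 in lfy-12, in place of -4.31 and -1.74.

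The order of the levels separated day 0 from the rest for AT1G56300. Group means (± SD, n = 2) at day 0 were 8.95 ± 0.10 in Col, 8.78 ± 0.66 in lfy-12, 7.47 ± 0.49 in ft-2, 7.08 ± 0.81 in co-2 and 6.96 ± 0.48 in Ler. Day 3 of Col (5.90 ± 1.03) and of ft-2 (5.27 ± 0.42) came next, and the remaining 13 groups lay between 4.91 and 4.32. Of the neighbours in this order, lfy-12 and ft-2 at day 0 differed by 1.30, more than the replicate differences of either group. Arrays of Ler at day 0 and Col at day 3 overlapped, and so did Col with lfy-12 and ft-2, co-2 and Ler with each other at day 0. Among the 13 low groups the gaps between neighbours were at most 0.18, and in 10 of 12 gaps the difference was within the replicate differences.

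The order for MSRB5 followed genotype as well as day. The highest means were 8.16 ± 0.41 in lfy-12 and 7.79 ± 0.02 in Col at day 0, which differed by less than the lfy-12 replicates, followed after a gap of 1.19 by Ler at day 0 (6.61 ± 0.24). From there to ft-2 at day 0 (5.48 ± 0.04) neighbours differed by at most 0.26 and their arrays overlapped, and this middle stretch held lfy-12 at days 3 and 5, Col at days 3, 5 and 7 and co-2 at day 0. A gap of 0.46 led down to lfy-12 at day 7 (5.02 ± 0.07). Below it, all later groups of Ler, co-2 and ft-2 lay between 5.01 and 4.46, with overlapping neighbours. The day 0 mean of ft-2 was thus below the day 5 mean of lfy-12, 6.43 ± 0.27.

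The spread between genotypes narrowed with time for AT1G56300. The highest and lowest genotype means stood 1.98 apart at day 0, 1.23 at day 3, 0.49 at day 5 and 0.57 at day 7. For MSRB5 the corresponding spans were 2.68, 2.13, 1.92 and 1.68, so genotypes remained apart at day 7. At day 0 the Ler minus Col difference was -1.98 ± 0.35 for AT1G56300 and -1.19 ± 0.24 for MSRB5, given without a test. The probes of this array were designed on the Columbia genome, and a weaker match to Landsberg transcripts and a lower transcript level cannot be told apart.

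How low the later signals were limits what can be measured. AT1G56300 lay between the 43.6th and 85.8th percentile of its array at day 0 and between the 13.5th and 45.7th afterwards. On 18 of the 30 later arrays it was below the lower quartile of its array, which lay between 4.66 and 4.92. MSRB5 lay between the 33.8th and 73.5th percentile at day 0 and the 12.5th and 46.4th afterwards, with 12 of 30 later arrays below the quartile. Differences among signals this low are poorly resolved on an array.

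MSRB5 fell again from day 5 to day 7 in lfy-12, the only 1 of 5 genotypes in which it was called. Its signal went from 6.43 to 5.02, a change of -1.41 ± 0.24 log2 units or 2.65-fold (limma, adjusted p = 0.00157). The day 7 arrays lay wholly below the day 5 arrays, as they did for 23.1% of all probe sets, and 1.09% were called in that comparison. One of the day 5 arrays, replicate 2, is the array with 8.54% of Landsberg-type signal. Without it the change was -1.21 (adjusted p = 0.0762), and without all 3 such arrays it was -1.21 (adjusted p = 0.0811), so the call rests on that array. The part of the foreign signal in the result was not tested.

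In the other genotypes MSRB5 was not called between day 5 and day 7. The change was 0.51 in Col (adjusted p = 0.187, limma) with overlapping arrays, -0.01 in Ler (0.999), -0.48 in ft-2 (0.519) and -0.36 in co-2 (0.639), each ± 0.24. Called probe sets made up 8.08% in Col, 3.12% in Ler, 0.158% in ft-2 and 0.479% in co-2. The Col value depended on 1 array: day 7 replicate 1 read 6.62 and replicate 2 read 5.72. Without replicate 2 the change was 0.96 (adjusted p = 0.0434), and without replicate 1 it was 0.06 (adjusted p = 0.931).

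The difference between the courses of lfy-12 and Col was itself called. For the change of MSRB5 from day 5 to day 7, lfy-12 minus Col was -1.92 ± 0.34 log2 units (limma, adjusted p = 0.0143). Only 0.0484% of probe sets, 11 in number, were called for this difference, all of them lower in lfy-12. Among the Col arrays, the call was lost without replicate 2 of day 5 (-1.73, adjusted p = 0.169) or replicate 1 of day 7 (-1.47, 0.249). Among the lfy-12 arrays it was lost without replicate 2 of day 5 (-1.73, 0.253) or of day 7 (-1.87, 0.0996). It was also lost without the 3 arrays with foreign signal (-1.73, 0.229) and in a fit of these 2 genotypes alone (-1.92, 0.0794). The direction was the same each time.

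At day 7 MSRB5 was lower in lfy-12 than in Col, 5.02 against 6.17, a difference of -1.15 ± 0.24 or 2.23-fold (limma, adjusted p = 0.00497, with 3.2% of probe sets called). The arrays did not overlap, as was the case for 49.1% of probe sets. This too rested on the higher Col array: without Col day 7 replicate 1 the difference was -0.70 (adjusted p = 0.229), and it was -1.11 (adjusted p = 0.0754) when the second lfy-12 array of that day was left out. At day 5 the sign was the opposite, 0.77 ± 0.24 higher in lfy-12, and was not called (limma, adjusted p = 0.104, 2.29% called). Without the 3 arrays with foreign signal it was 0.57 (adjusted p = 0.423). At day 3 the described difference was 1.08 in the same direction as at day 5.

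Between the accessions MSRB5 was lower in Ler at both later days. The Ler minus Col difference was -1.15 ± 0.24 at day 5 (limma, adjusted p = 0.000801) and -1.67 ± 0.24 or 3.19-fold at day 7 (adjusted p = 6.17e-06). Differences between the accessions were common, with 19.5% of probe sets called at day 5 and 17.8% at day 7. Without Ler day 5 replicate 1, which read 4.12 against 4.89, the day 5 difference was -0.77 (adjusted p = 0.0704). The day 7 difference was still called when any 1 of its arrays was left out. The change of this difference from day 5 to day 7 was -0.52 ± 0.34 and not called (adjusted p = 0.701, 0.242% called).

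Neither photoperiod mutant was called against Ler for MSRB5 at days 5 and 7. For co-2 the differences were 0.35 at day 5 (95% interval -0.15 to 0.85, adjusted p = 0.409) and 0.00 at day 7 (-0.50 to 0.50, 0.998). For ft-2 they were 0.50 (0.00 to 1.00, 0.199) and 0.03 (-0.47 to 0.53, 0.956). In these comparisons 9.6% (co-2, day 5), 16.9% (co-2, day 7), 11.3% (ft-2, day 5) and 19.8% (ft-2, day 7) of probe sets were called. The 2 mutants set against each other differed by 0.15 at day 5 and 0.03 at day 7, with an adjusted p of 1 (limma) at both days. At day 7 the means of Ler, co-2 and ft-2 were 4.50, 4.50 and 4.52, and the intervals leave room for signal differences of up to about 0.5 log2 units either way. All 6 arrays of these groups lay below the lower quartile of their array, where differences are poorly resolved. The intervals therefore do not bound a difference in transcript level.

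MSRB5 started lower in co-2 and ft-2 than in Ler, and its described change was smaller. The day 7 means of Ler, co-2 and ft-2 were alike (4.50, 4.50 and 4.52), so the smaller change restates the lower start. At day 0 the difference from Ler was -1.13 ± 0.24 in ft-2 and -0.69 ± 0.24 in co-2. The day 7 minus day 0 change was smaller than in Ler by 1.16 ± 0.34 in ft-2 and by 0.69 ± 0.34 in co-2. Both values use the same day 0 arrays, on which the gene was chosen, and carry no test. For AT1G56300 the same differences in change were 0.02 in ft-2 and 0.20 in co-2, each ± 0.49. Without the 3 arrays with foreign signal the ft-2 values for MSRB5 were -1.10 at day 0 and 1.13 in the change, and the AT1G56300 change in ft-2 stood at -0.32 ± 0.56 from that in Ler.

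AT1G56300 was called in none of the 20 comparisons without day 0 arrays. Besides the shares of called probe sets given above, these shares were 0.154% and 0.237% for ft-2 minus co-2 at days 5 and 7. For the differences in change they were 0.756% (co-2 minus Ler), 0.998% (ft-2 minus Ler) and 0.0044% (ft-2 minus co-2). Its change from day 5 to day 7 was 0.10 in Col, 0.29 in lfy-12, -0.12 in Ler, 0.17 in ft-2 and 0.34 in co-2, each ± 0.35 (limma, adjusted p from 0.780 to 0.989). Without the 3 arrays with foreign signal the lfy-12 value was 0.20. At day 7 the Ler minus Col difference was -0.57 ± 0.35 (adjusted p = 0.305) and the ft-2 minus Ler difference 0.53 ± 0.35 (adjusted p = 0.313), and in both the arrays did not overlap, as for 58.3% and 63.8% of probe sets. The standard error of this gene includes the wide replicate differences at days 0 and 3. When only the arrays of days 5 and 7 were fitted, both differences were called, with adjusted p of 0.00473 and 0.00776 (limma). That fit was added after the data were seen.

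**Figure D3:**
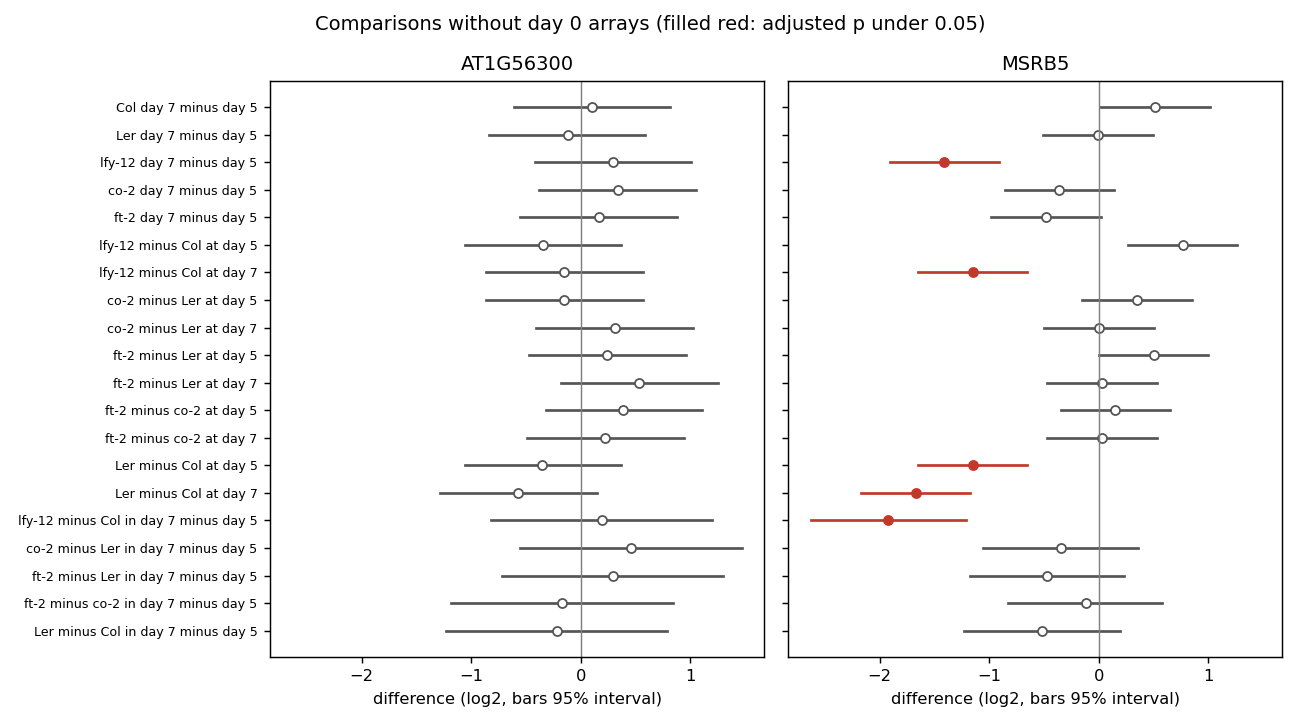
Estimates (log2) and 95% intervals of the 20 comparisons that use no day 0 array, AT1G56300 on the left and MSRB5 on the right, filled red where the adjusted p was under 0.05. No comparison of AT1G56300 is filled, and 5 of MSRB5 are, all of them below 0.

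Replicate differences were compared between the 2 genes. At day 0 AT1G56300 read lower in replicate 1 than in replicate 2 in 5 of 5 genotypes, a pattern shared by 6.23% of probe sets, and MSRB5 did so in 4 of 5. The clock gene GI (GIGANTEA), whose transcript cycles daily, also read lower in replicate 1 at day 0 in each genotype (8.50 against 8.79 in Col, 8.31 against 8.82 in Ler). The cold-induced gene COR15A did not follow this order throughout. It read higher in replicate 1 at day 0 in Col (7.27 against 6.75) and lfy-12 (7.03 against 6.36), and lower in Ler, co-2 and ft-2. COR47, also cold-induced, had the same pattern as COR15A. Over all 20 groups the replicate differences of AT1G56300 and MSRB5 had an uncentred correlation of 0.16, and of 0.01 without Col day 3 and co-2 day 0. Whether sampling hour plays a part was not tested.

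Group means of the 2 genes correlated at r = 0.75 over the 20 groups and at 0.14 over the 15 groups of days 3, 5 and 7. Both genes were high at day 0, and no p is given because the groups share genotypes and days. Among 1825 genes whose group means spanned more than 1 log2 unit, MSRB5 ranked 52 in likeness to AT1G56300, and AT1G56300 ranked 46 in likeness to MSRB5. The 2 genes were therefore not each other's closest match.

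**Figure D4:**
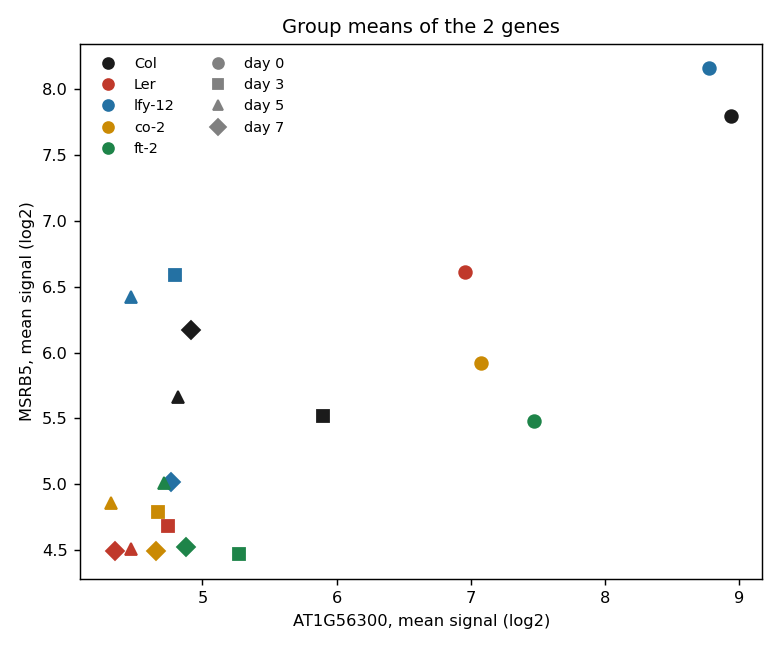
Mean signal (log2) of MSRB5 against that of AT1G56300 in each of the 20 groups, colours for genotypes and symbols for days. Day 0 groups lie to the right at 6.96 or more, and the later groups stack at the left over an MSRB5 range of 4.46 to 6.59.

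The genes most like AT1G56300 were AT4G30650 (r = 0.944), COR15A (0.937), COR15B (0.925), AT4G30660 (0.923) and AT1G48330 (0.911). COR15A and COR15B encode chloroplast proteins that accumulate in the cold and protect membranes, and AT4G30650 and AT4G30660 belong to a family of small membrane proteins named for low temperature and salt response. Of 3598 probe sets compared, 17 reached 0.9, against a median of 0.15. Over the 15 later groups alone the values were 0.816 for AT4G30650, 0.861 for COR15A and 0.851 for COR15B. AT4G30660 and AT1G48330 had no value there, since their later group means spanned no more than 1 log2 unit. These genes were picked for likeness over groups that include days 0 and 3, so their low values at day 3 restate the choice and carry no test. The day 3 change of AT4G30650 ran from -1.32 in Col to -2.08 in lfy-12.

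The genes most like MSRB5 were AT1G18390 (r = 0.882), AT3G47800 (0.881), AT1G51805 (0.867), AT3G22240 (0.864) and AT2G21550 (0.856). AT3G47800 encodes a protein of the galactose mutarotase family and AT1G51805 a receptor kinase with leucine-rich repeats. None of the 3598 probe sets reached 0.9 for MSRB5. Their day 3 changes are likewise part of the choice and are given without a test. AT1G18390 ran from -0.58 in Col to -0.16 in ft-2, AT3G47800 from -0.65 in Ler to -0.41 in Col, and AT1G51805 from -1.13 in Ler to -0.38 in Col. AT2G21550 ran from -0.26 in Col to -0.04 in lfy-12. AT3G22240 stood at -1.58 in lfy-12, beside -1.57 for MSRB5. It stood at 0.08 in co-2 and -0.25 in ft-2, where MSRB5 stood at -1.13 and -1.02.

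**Figure D5:**
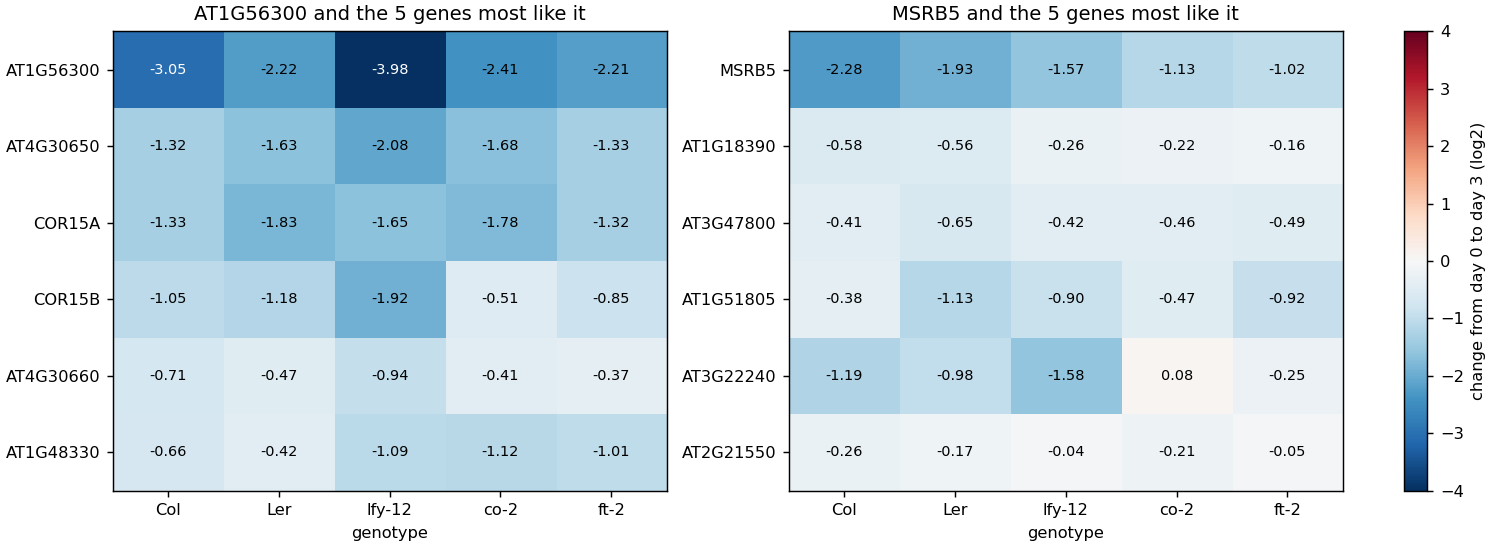
Change from day 0 to day 3 (log2) in each genotype for AT1G56300 and the 5 genes most like it (left) and for MSRB5 and the 5 genes most like it (right). AT1G56300 has the largest decrease of its panel in every genotype, while in the MSRB5 panel AT3G22240 in lfy-12 (-1.58) comes level with MSRB5 (-1.57).

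Among the other measured methionine sulfoxide reductases, calls at day 3 came in Ler and co-2 only. Of 13 others in the list 4 were measured, and at day 3 1 was called higher in Ler, 1 lower in co-2 and none in Col, lfy-12 or ft-2. Their median change at day 3 was 0.05 to 0.22 across genotypes, beside 0.00 to 0.03 over all probe sets, of which 2.68% (Col), 7.73% (Ler), 10.5% (lfy-12), 2.62% (co-2) and 1.7% (ft-2) were called in either direction. MSRB3, a B-type enzyme encoded near MSRB5, read 7.67 in Col at day 0 and 7.58 at day 3, with changes between -0.09 and 0.21 in the 5 genotypes. MSRA5, an A-type enzyme, was called higher at day 3 in Ler (0.40, limma, adjusted p = 0.0179). MSRB9 was called lower at day 3 in co-2 (-0.57, adjusted p = 0.00883, and not called without the 3 arrays with foreign signal).

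By day 7 MSRB9 had gone the other way from MSRB5. It was called higher in Col (0.93, limma, adjusted p = 1.63e-06), Ler (1.04, 1.29e-07), lfy-12 (1.09, 2.14e-07) and ft-2 (0.97, 5.01e-06), and stood at 0.18 in co-2 (0.442). Over all probe sets, 7.15% were called higher at day 7 in Col, 7.74% in lfy-12, 11.8% in Ler, 5.25% in ft-2 and 3.6% in co-2, and 6.08%, 5.08%, 10.9%, 6.65% and 5.52% were called lower in the same order. In Col, MSRB9 read 8.70 and 8.57 at day 0 and 9.49 and 9.65 at day 7, without overlap, as for 52.1% of probe sets. MSRB6, the next gene on the other side of MSRB5, was called lower at day 7 in Ler (-1.61, adjusted p = 0.0365) and ft-2 (-2.18, 0.00983). Its replicates disagreed widely, with 7.41 and 4.42 on the 2 Ler day 0 arrays against 4.26 and 4.35 at day 7. In ft-2 both day 0 arrays were high, at 6.58 and 7.35, against 4.83 and 4.74 at day 7.

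Of 14 thioredoxins and thioredoxin reductases, the usual electron donors of these enzymes, 4 were measured. At day 3 TRXY1 was called higher in Ler (0.40, limma, adjusted p = 0.00531), and no other was called, except 1 lower in ft-2 once the 3 arrays with foreign signal were left out. The median change at day 3 was -0.24 to 0.11 across genotypes. By day 7 NTRC and TRXX were lower in Ler (-0.49 and -1.06) and ft-2 (-0.82 and -0.63). Of 11 peroxide-scavenging genes only 2CPA, a chloroplast peroxiredoxin, was measured, and it was called at day 7 in Ler (-0.37, adjusted p = 0.0161) and at day 3 in no genotype. Without the 3 arrays with foreign signal it was also called lower at day 7 in ft-2, where it stood at -0.29 with them (0.0969).

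Of 20 other J-domain genes 3 were measured. ATJ1, ERDJ2A and ERDJ3B were called in no genotype at day 3 or day 7 (limma), with day 3 changes from -0.21 to 0.20 and medians of -0.16 to 0.13. The HSP70 partners gave 2 measured genes of 13. HSP70-2 was called higher at day 3 in Col (0.53, adjusted p = 0.00362), Ler (0.42, 0.0127) and lfy-12 (0.40, 0.0146). HSC70-3 was called lower in co-2 (-0.74, 0.000185).

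Clock genes, which follow the time of day, and cold-induced genes were listed with earlier results of these arrays known. GI was the only 1 of 26 clock and day-length genes measured, that is, listed alone by a probe set. Its day 0 signal, 8.31 to 8.82 over 10 arrays, lay above every later array (7.34 to 7.97). It was called lower at day 3, with changes of -1.05 in Col, -1.02 in lfy-12, -0.88 in Ler, -0.75 in ft-2 and -0.95 in co-2 (limma, adjusted p from 1.6e-05 to 0.00268). Called lower at day 3 were 1.55% of probe sets in Col, 3.19% in lfy-12, 3.5% in Ler, 1.04% in ft-2 and 1.82% in co-2, and 0.193% in all 5. Of 14 cold-induced genes 3 were measured. COR15A and COR15B are also among the genes most like AT1G56300, so their values are not separate evidence and are given without a test. COR15A read lower at day 3 in all 5 genotypes, with changes of -1.33 in Col, -1.65 in lfy-12, -1.83 in Ler, -1.32 in ft-2 and -1.78 in co-2. COR15B ran from -1.92 in lfy-12 to -0.51 in co-2. COR47, a dehydrin, was called lower at day 3 in Ler (-1.60), co-2 (-1.39) and ft-2 (-1.25). The median change of the 3 at day 3 was -1.65 to -1.05 across genotypes, beside 0.00 to 0.03 over all probe sets. At day 7 COR47 was called lower in all 5 genotypes (limma), and COR15A and COR15B also read lower than at day 0. The part of sampling hour or temperature in these differences, or in those of AT1G56300, was not tested.

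Tissue markers moved at the same time in some genotypes. The leaf marker LHCB4.3 was called higher at day 3 in Col (1.04, limma, adjusted p = 0.00036), Ler (1.02, 0.000204) and lfy-12 (0.62, 0.0167), while RCA, LHCB4.1 and LHCB4.2 were not called at that day, and the median of the 4 was -0.34 to 0.32 across genotypes. By day 7, 3 of 4 leaf markers were called lower in Ler and ft-2 (2 of 4 in ft-2 without the 3 arrays with foreign signal), while LHCB4.3 was called higher in Col (1.43), Ler (1.61), lfy-12 (0.94) and co-2 (0.59). The root marker PYK10 was lower at day 3 in Col (-1.45, 0.000218) and lfy-12 (-0.73, 0.0346), where AT1G56300 had its largest differences from day 0, and by day 7 it was lower in Col, Ler, lfy-12 and co-2. Their part in the course of the 2 genes was not tested.

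The genes next to the 2 loci on the chromosome gave few calls at day 3, as did the probe sets in general. Genome-wide, the share called at that day in either direction was lowest in ft-2 (1.7%) and highest in lfy-12 (10.5%). With so few neighbours measured, a difference from that share cannot be judged. Of the 3 protein-coding neighbours on each side of AT1G56300, 5 were measured, and AT1G56310 was called lower at day 3 in Col (-0.32, limma, adjusted p = 0.0466) and lfy-12 (-0.28, 0.037). The other 4 were not called. Of the neighbours of MSRB5 4 were measured (AT4G04790, MSRB3, MSRB6 and DER2.2), and none was called at day 3. MSRB6 nevertheless stood at -1.53 in Ler (adjusted p = 0.0932) and -1.52 in ft-2 (0.18), with a standard error of 0.56.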

How the data were processed

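Total RNA of the shoot apex was measured on 40 ATH1 arrays, and genotype, day and replicate number came from the sample titles. The deposited table holds 22810 probe sets, and its values, made by the authors with a normalization not given in the sources used here, were read as log2 signal, since the highest value as a natural logarithm would stand for 834443, beyond a scanner's range. No pseudocount was added. Leaving out 64 controls, 22746 probe sets were tested. Arrays have no counted depth, and their number, 2 a group, limits the precision.

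A linear model of the 20 group means was fitted to all 40 arrays with limma 3.58.1 in R 4.3.3 (20 residual degrees of freedom, empirical Bayes with intensity trend, two-sided), with calls at an adjusted p (Benjamini-Hochberg over all probe sets of a comparison) under 0.05. The steps were tested on simulated data. Tests of the 2 genes used 20 comparisons without day 0 arrays: day 7 minus day 5 in 5 genotypes, 5 genotype differences at days 5 and 7, and the same 5 in the change between those days. With 2 arrays on each side, the smallest p of an exact permutation test is 0.333, so none was run.

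The 2 genes and the gene lists were chosen with earlier results of these data known. Named besides them were, by rule, the 5 genes with the highest Pearson correlation of group means, all measured methionine sulfoxide reductases, and up to 4 genes of each other list by size of the mean day 3 change. Names came from the platform's gene list and RefSeq (TAIR10.1), and neighbours from RefSeq gene order. Of the tested probe sets 13513 list 1 gene, 503 several and 8730 none. The share of the other background's signal was read from probe sets that differ by over 3 log2 units between backgrounds, and arrays over 2% are named. Alternatives were quantile normalization, a filter on low values, no intensity trend, the genotypes of a comparison alone, a replicate block and each array left out. A fit without the 3 arrays carrying such signal, one of days 5 and 7 alone and a replicate block within each day were added after the data were seen. Figures were drawn with matplotlib 3.10.9.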

Additional observations from a re-analysis of the deposited data

Results flagged for a closer look

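The change of MSRB5 from day 5 to day 7 differed between lfy-12 and Col by -1.92 ± 0.34 log2 units in a test of the difference itself (an interaction contrast in limma, adjusted p = 0.0143, 11 of 22746 probe sets called). The change was -1.41 in lfy-12, where both day 7 arrays lay below both day 5 arrays (as for 23.1% of probe sets), and 0.51 in Col, where the arrays overlapped. The call of this difference, but not its direction, was lost without any 1 of 4 arrays, as given with the result above. Groups of 2 arrays allow no test for a single array that stands apart.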

How the results depend on the processing

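Over 40 tested results and 520 alternatives, 506 kept their side of the threshold, 11 lost the call, 3 gained it and none reversed a call. Uncalled results could change sign: MSRB5 in Ler from day 5 to day 7 was -0.01, and 0.37 without Ler day 5 replicate 2. Of 330 alternatives to 30 described changes from day 0, 329 moved by less than the replicate SD, and AT1G56300 in Col at day 5 moved to -4.22 under quantile normalization. This count says little about stability, because leaving out 1 of 2 arrays cannot move a value beyond that SD. The filter, the fit without trend, the genotypes alone and the replicate blocks left these estimates unchanged. The cause of a moved value or call was not tested. For MSRB5 from day 5 to day 7 in lfy-12, leaving out 1 array gave -1.60 to -1.21, and without the 3 arrays with foreign signal the value was -1.21. In Col it ranged from 0.06 to 0.96. For lfy-12 minus Col at day 7 the range was -1.61 to -0.70, and for the difference in change -2.37 to -1.47, with -1.73 without the 3 arrays and -1.92 (adjusted p = 0.0794) in the fit of these genotypes alone. For Ler minus Col it was -1.54 to -0.77 at day 5. With only days 5 and 7 fitted, AT1G56300 was called for Ler minus Col (-0.57) and ft-2 minus Ler (0.53) at day 7. Likeness of the 2 genes was 0.75 under quantile normalization and 0.14 over the 15 later groups.

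Same-numbered arrays of a genotype deviated together in only 7 of 30 pairs (correlation over 0.1, range -0.50 to 0.21), and those of different genotypes on the same day in 10 of 40 (-0.21 to 0.40), so by a rule that asks this of every pair the numbers do not pair the samples. With the number as a replicate block, MSRB5 from day 5 to day 7 in lfy-12 was -1.41 (limma, adjusted p = 0.00213), and with a block within each day, added after the data were seen, 0.00248. Neither block changed a call of the 2 genes. Counts of called probe sets moved over 1.5 times in 34 of 35 comparisons under some alternative: from 247 to between 81 and 451 (lfy-12, day 7 minus day 5), 727 to 260 and 1019 (lfy-12 minus Col, day 7), 11 to 6 and 30 (difference in change), 4441 to 2661 and 5295 (Ler minus Col, day 5), and for day 3 minus day 0 from 610 to 208 and 675 in Col, 1758 to 672 and 2187 in Ler, 2388 to 708 and 2742 in lfy-12, 595 to 69 and 977 in co-2, and 386 to 47 and 561 in ft-2.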
